A study of Mus musculus with 6 samples.

Results

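The genes studied here let lymphocytes enter and leave lymphoid organs: the transcription factor gene Klf2, the sphingosine-1-phosphate receptor gene S1pr1, the chemokine receptor genes Ccr7, Cxcr4 and Cxcr5, and Selplg, which encodes the selectin ligand PSGL-1. All array probes that the array design assigns to these 6 genes were taken, which gave 7 probes (2 for Selplg and 1 for each other gene) of the 55681 non-control probes on the array. Of these 7, 6 probes of 5 genes were bright enough to be tested, among 20168 tested probes in all. The study asked how an excess of the microRNA miR-26a, or sequestration of the miR-26 family, changes the transcripts of B cell precursors.

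All samples came from 1676, a mouse pre-B cell line derived from bone marrow of SLP-65-/- LAT-/- animals, so every group, the control included, lacks both adaptor proteins, and 1 cell line stands for the pre-B cell. The cells were kept in medium with excess IL-7 and selected with puromycin after infection with a retroviral vector. The control group carried an empty vector, the miR-26a group a vector for hsa-miR-26a-2, and the sponge group a vector for the miR-26 sponge, a transcript with repeated binding sites that soaks up miR-26. Each group had 2 arrays, numbered 1 and 2 in the labels, which are called experiments 1 and 2 here, and the clones were made separately for each experiment, so that p-values measure the spread between such clones and arrays of 1 line. The control was not a scrambled sponge, so effects of carrying a sponge transcript and of losing miR-26 cannot be told apart. The titles of the control samples quote other sample accessions, so these RNAs may come from an earlier series, although all 6 arrays lay on 1 slide. The scanner marked 28823 to 29800 spots of each array as well above background and 0 as saturated. Replicate arrays correlated at 0.996 to 0.997 across tested probes, with a median absolute difference of 0.10 to 0.15 on the log2 scale.

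KLF2 is a transcription factor that FOXO proteins help to induce in resting lymphocytes and that keeps homing and egress receptors such as S1PR1 expressed. S1PR1 senses sphingosine-1-phosphate in blood and lymph and draws cells out of bone marrow, thymus and lymph nodes, while CCR7 answers to CCL19 and CCL21 and leads cells into lymph nodes. CXCR4 responds to CXCL12 and holds B cell precursors in the bone marrow, CXCR5 follows CXCL13 into B cell follicles, and PSGL-1 binds selectins on vessel walls once its glycans are built by glycosyltransferases.

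The microRNA that was added, or soaked up, is shown first because the groups are defined by it. A microRNA pairs with its targets mainly through its seed, bases 2 to 8, given in capitals in the mature mouse sequences from RefSeq (GRCm38.p6), written 5′ to 3′.
miR-26a-5p: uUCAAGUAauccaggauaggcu
miR-26b-5p: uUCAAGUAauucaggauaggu
The first is encoded at chr9:119031811-119031832 and chr10:126995543-126995564, the second at chr1:74394324-74394344, all on the + strand. Both share the seed UCAAGUA, so the family is addressed by 1 seed. The words TACTTGA, which pairs with the whole seed, and ACTTGAA, which pairs with bases 2 to 7 and faces base 1 with an A, were found in 0 of the 7 probes, against 0.431% and 0.7% of all 55681 probes. Probes cover 60 bases of a transcript, and the rest of the transcripts was not searched.

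The sequence before the Klf2 start is shown because Klf2 was the changed member with a promoter entry in the RefSeq table used, which held 2 of the 6 genes, Klf2 and Cxcr4. The 250 bases upstream of the start lie at chr8:72318812-72319061 (GRCm38.p6, + strand).
Klf2 upstream: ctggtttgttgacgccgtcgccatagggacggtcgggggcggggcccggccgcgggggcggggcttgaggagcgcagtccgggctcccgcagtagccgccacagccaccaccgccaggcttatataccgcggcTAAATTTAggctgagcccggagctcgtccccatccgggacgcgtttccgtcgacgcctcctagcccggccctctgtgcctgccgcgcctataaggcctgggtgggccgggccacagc
The capitals mark TAAATTTA, a core word of MEF2 sites that begins 117 bases before the start. It was sought after the sequence had been seen, and 0.545% of 32851 promoter windows of 300 bases hold it. GTAAACA, a FOXO core, and CACACCC, a core bound by KLF proteins, were not in the windows of Klf2 or Cxcr4 on either strand, against 3.65% and 7.95% of all windows. The G and C content of the 250 bases was 71.2% for Klf2 and 61.2% for Cxcr4, with 29 and 19 CG dinucleotides.

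Of the 6 tested homing gene probes, 3 were lower in the miR-26a than in the control arrays at an adjusted p under 0.05 (limma over all tested probes): those of Ccr7, S1pr1 and Klf2. The count includes Ccr7, which passed the filter only through the control and sponge arrays, and S1pr1, above 50 on 1 of the 2 miR-26a arrays, and with signals above 50 required on all 6 arrays 1 probe, that of Klf2, was lower. Among all tested probes 5.12% were lower and 4.6% were higher by the same rule, and 0 homing gene probes were higher. The median change of the 6 probes was -0.42 on the log2 scale, against 0.01 for all tested probes. These genes were chosen with earlier results of these data known, so the shares and medians do not compare an independent set. The Cxcr4 probe was 0.20 lower without passing the adjustment, and the Selplg probes did not pass the test in either direction. Cxcr5 was not above background on any array. With the sponge 0 of 6 homing gene probes passed. All 3 calls ended when no filter on dim probes was used, in an unpaired t-test and in the test of the 2 log ratios alone, in each of which 0 of all probes passed the adjustment. The array measures RNA of whole cultures, so fewer expressing cells and less RNA per cell cannot be told apart.

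**Figure D1:**
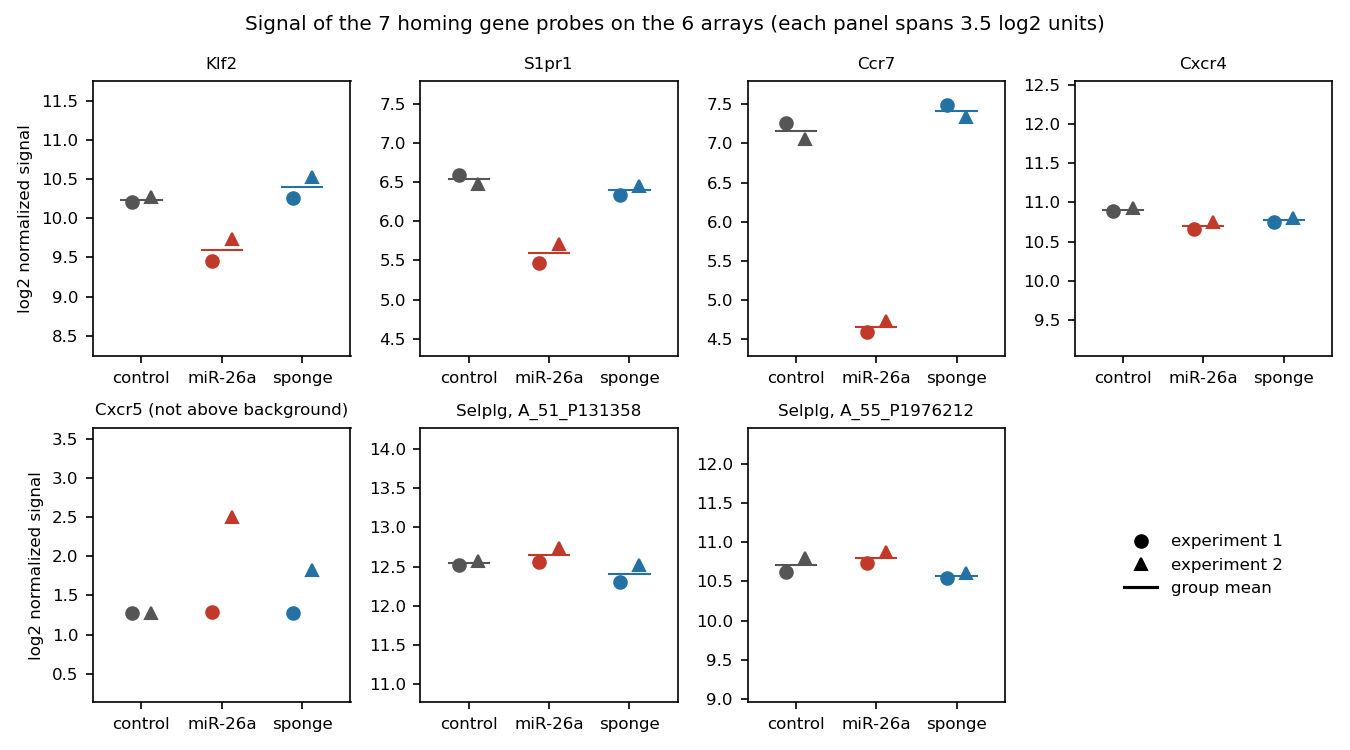
Log2 quantile-normalized signal (vertical axis, each panel spanning 3.5 units) of the 7 homing gene probes on each array, by group; circles are experiment 1, triangles experiment 2 and horizontal lines group means. Both miR-26a arrays lie below all other arrays for Klf2, S1pr1 and, by the widest gap, Ccr7, while the Cxcr4 and Selplg points stay close together and the Cxcr5 points are not well above background.

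Klf2 (probe A_51_P144264, mm9 chr8:74845137-74845196, + strand) is the factor among the 6. Its log2 signal was 10.20 and 10.27 in the control arrays of experiments 1 and 2, 9.46 and 9.73 in the miR-26a arrays, and 10.26 and 10.53 in the sponge arrays. The miR-26a arrays were the lowest, below every other array, and the sponge and control arrays overlapped. With miR-26a Klf2 fell by 0.65 (SE 0.08, 95% interval -0.85 to -0.44), to 63.9% of the control level, with an adjusted p of 0.0127 by limma. Klf2 fell by 0.75 in experiment 1 and fell by 0.54 in experiment 2. Without the experiment as a block the adjusted p was 0.0909, and it was 0.0957 without control array 1 and 0.0519 without control array 2, so the call ended in each of these fits while the direction stayed.

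With the sponge, Klf2 was 0.16 above the control (95% interval -0.05 to 0.36), which did not pass limma's test (adjusted p = 0.397). Compared directly with the sponge, miR-26a lowered Klf2 by 0.80 (SE 0.08), to 57.3%, with a limma adjusted p of 0.00524, and the 2 experiments gave falls of 0.81 and 0.80. This call ended without sponge array 1 (adjusted p = 0.0552 in limma) or sponge array 2 (0.0635).

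S1pr1 (A_52_P532227, mm9 chr3:115414020-115414079, - strand) encodes the egress receptor. Its log2 signal was 6.59 and 6.47 with the control vector, 5.47 and 5.71 with miR-26a, and 6.34 and 6.45 with the sponge. Again both miR-26a arrays were below the other 4, by more than the replicates of any group differed. S1pr1 fell by 0.94 with miR-26a (SE 0.10, 95% interval -1.20 to -0.69), to 52% of the control, with an adjusted p of 0.00884 in limma, and by 1.13 and 0.76 in experiments 1 and 2. The probe was dim, at a processed signal of 43.7 and 50.9 in the miR-26a arrays against 95.5 and 90.2 in the control arrays, although it was well above background on all 6 arrays. With normexp background correction, which adds an offset of 50, S1pr1 fell by 0.52. Without control array 1 the call ended (adjusted p = 0.0545 by limma).

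The sponge arrays were both below the control arrays for S1pr1, by a mean of 0.14 (95% interval -0.39 to 0.12), which did not pass (limma adjusted p = 0.535). Without control array 1 the difference was 0.011 in the other direction. Between miR-26a and the sponge, S1pr1 differed by -0.80 (SE 0.10, limma adjusted p = 0.00936), a call that ended without sponge array 1 (0.0837) or sponge array 2 (0.0795).

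Ccr7 (A_55_P2023542, mm9 chr11:99005551-99005610, - strand), the lymph node entry receptor, had the largest change of the 5 genes tested. Its log2 signal was 7.26 and 7.06 in the control arrays, 4.59 and 4.73 in the miR-26a arrays, and 7.49 and 7.33 in the sponge arrays. The miR-26a arrays stood far below all others, and both sponge arrays were above both control arrays. Ccr7 fell by 2.50 with miR-26a (SE 0.10, 95% interval -2.76 to -2.24), a 5.66-fold difference that left 17.7% of the control level, with a limma adjusted p of 0.00158. It fell by 2.67 in experiment 1 and fell by 2.33 in experiment 2, and the change ranked 6 from the lowest among the 20168 tested probes. Leaving out any 1 array gave changes of -2.66 to -2.34. These fits kept the probes filtered on all 6 arrays. Filtered again without a control or sponge array, the Ccr7 probe, above 50 on 4 arrays, would not be tested.

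The low side of the Ccr7 comparison rests on dim spots. The processed signal was 23.5 and 25.5 in the miR-26a arrays, 153 and 134 in the control arrays, and 172 and 175 in the sponge arrays, all well above background by the scanner's flag. The probe passed the filter, a signal above 50 on at least 4 arrays, only through the control and sponge arrays, so a probe with this pattern had to differ to be tested. With normexp correction, which treats the background differently and adds an offset of 50, Ccr7 fell by 1.22. The part of the offset in this was not tested.

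With the sponge Ccr7 was 0.25 higher than in the control (SE 0.10, 95% interval -0.01 to 0.51), by 0.23 and 0.27 in the 2 experiments, and this missed the adjustment (unadjusted p = 0.0533, adjusted p = 0.318, limma). Directly between miR-26a and sponge the difference was -2.75 (SE 0.10), or 6.73-fold, with an adjusted p of 0.00104 in limma. The group means of Ccr7 and Klf2 followed the order miR-26a, control, sponge from low to high, and those of S1pr1 the order miR-26a, sponge, control. In each case the upper neighbours, control and sponge, did not differ beyond the test.

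**Figure D2:**
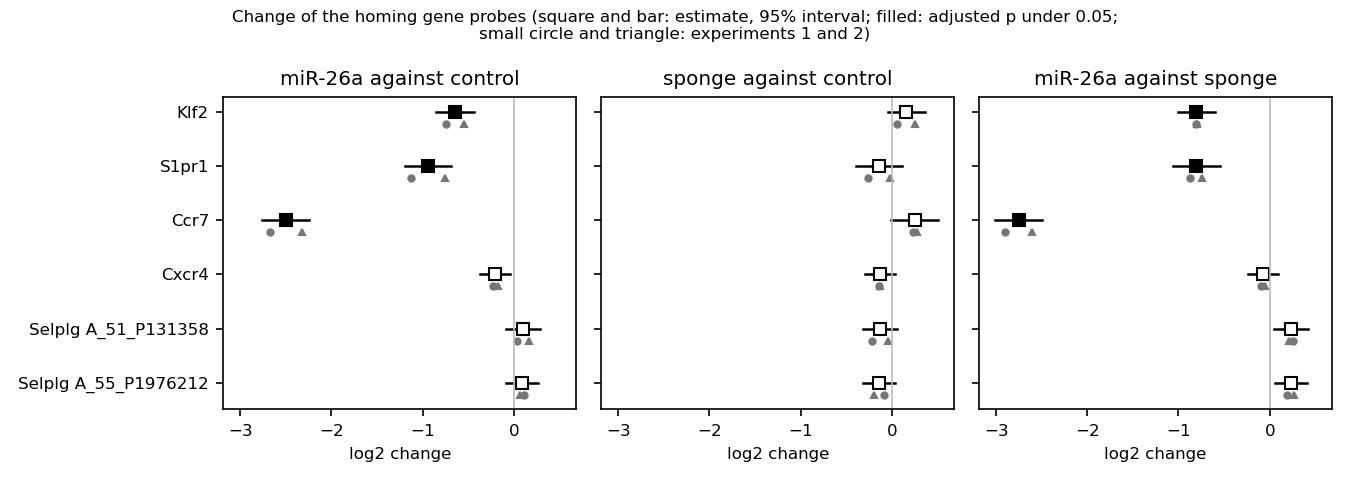
Log2 change (horizontal axis) of the 6 tested probes in the 3 comparisons; squares and bars are limma estimates with 95% intervals, filled where the adjusted p was under 0.05, and small circles and triangles are the changes within experiments 1 and 2. Klf2, S1pr1 and Ccr7 lie left of 0 in both comparisons with miR-26a, at -0.65, -0.94 and -2.50 against the control, and no square is filled for sponge against control.

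Cxcr4 (A_52_P585124, mm9 chr1:130485079-130485138, - strand), the receptor for CXCL12, was bright and varied little. Its log2 signal was 10.89 and 10.92 with the control vector, 10.66 and 10.75 with miR-26a, and 10.75 and 10.80 with the sponge. The miR-26a arrays were below the control arrays by 0.20 (SE 0.07, 95% interval -0.37 to -0.04), or 86.9% of the control, without overlap. That difference had an unadjusted p of 0.0247 and an adjusted p of 0.122 in limma and so did not pass. The sponge arrays were also below the controls, by 0.13 (95% interval -0.30 to 0.03, limma adjusted p = 0.386), and miR-26a and sponge differed by -0.07 (95% interval -0.23 to 0.10, limma adjusted p = 0.502).

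Selplg, the gene of PSGL-1, was measured by 2 probes, A_51_P131358 (mm9 chr5:114267807-114267834, of which the design lists 28 aligned bases) and A_55_P1976212 (mm9 chr5:114269206-114269265). The first had log2 signals of 12.52 and 12.57 in the control, 12.56 and 12.73 in the miR-26a and 12.30 and 12.52 in the sponge arrays. The second had 10.62 and 10.80, 10.73 and 10.87, and 10.54 and 10.60 in the same order. Both probes gave the same order of group means, sponge lowest and miR-26a highest, and with miR-26a and the control the arrays overlapped. The differences from the control were 0.10 (95% interval -0.08 to 0.29) and 0.09 (-0.08 to 0.27) with miR-26a, at limma adjusted p-values of 0.447 and 0.459. With the sponge they were -0.13 and -0.14, at adjusted p-values of 0.433 and 0.386 (limma). Between miR-26a and the sponge both probes differed by 0.23, without overlap, with unadjusted p-values of 0.0228 and 0.0177 and adjusted ones of 0.0893 and 0.0775 in limma, so neither passed.

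Cxcr5 (A_52_P70796, mm9 chr9:44320071-44320130), the follicle homing receptor of mature B cells, was well above background on 0 of the 6 arrays. Its processed signal was between 2.31 and 4.86, near the lowest values the scanner software gives, and values at that level have no order. It was not tested, and a difference was not detectable at this signal.

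For the sponge against the control, 0% of all tested probes were lower and 0.00992% were higher, so that 0 of 6 homing gene probes is near the background. At an unadjusted p under 0.05 limma gave 0 of the 6 probes, where 16% of all tested probes were, and 1 with 75th percentile scaling, with array weights and without either miR-26a array. An unpaired t-test and the test of the 2 log ratios alone gave 1 each. The control arrays are shared by both comparisons with the control, which are therefore not independent. Between miR-26a and the sponge the probes of Klf2, S1pr1 and Ccr7 were lower, in a comparison that shares the miR-26a arrays with that against the control. Here 8.55% of all tested probes were lower and 8.22% higher.

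The other genes of these pathways were taken from 8 lists, the 6 homing genes among them, with 1 probe a gene, and a gene can stand in more than 1 list. Together they hold 167 genes, of which 165 were found on the array and 92 were tested. With miR-26a 11 of the 92 genes were lower (12%) and 3 were higher (3.26%) than with the control. Among all tested probes 5.12% were lower and 4.6% higher, and the median change of the 92 genes was -0.02. The 11 include the called homing genes Klf2, S1pr1 and Ccr7. Ccr7 and Plcb2, both among the 11, passed the filter only through the control and sponge arrays. The lists were chosen with earlier results of these data known, so these shares do not compare an independent set. With the sponge 0 of 92 passed in limma, and 16 were at an unadjusted p under 0.05, where 16% of all tested probes were. Between miR-26a and sponge 13 were lower (14.1%) and 8 higher (8.7%), beside 8.55% and 8.22% of all tested probes. Leaving out 1 array gave 2 to 9 lower genes against the control, the fewest without control array 1.

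**Figure D3:**
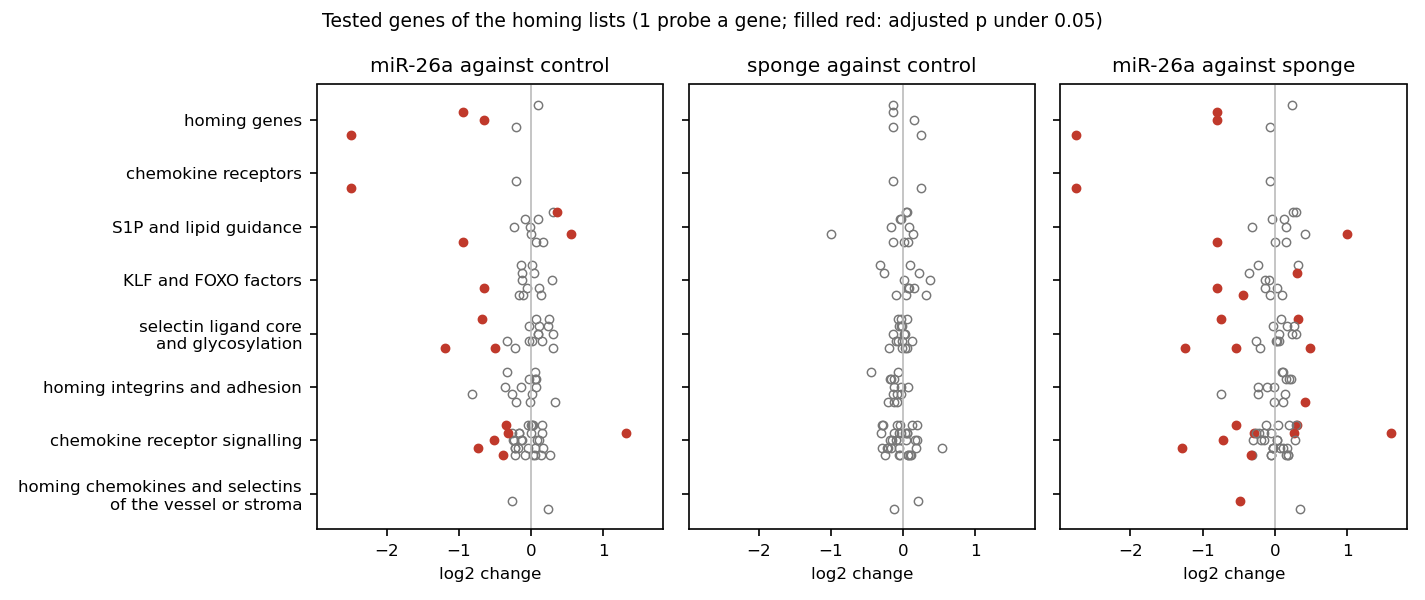
Log2 change (horizontal axis) of each tested gene in the 8 homing lists, 1 row of points per list, spread vertically only to separate them; filled red points had an adjusted p under 0.05. The points farthest left with miR-26a are Ccr7 at -2.50, shown in both lists that hold it, and B4galt1 at -1.19, and the point farthest right is Rgs18 at 1.31.

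Most chemokine receptors were not measurable in these cells. Of 25 receptor genes on the array, 7 cleared background in at least 1 sample and 2, Ccr7 and Cxcr4, were tested. Of the genes they answer to, Cxcl12 and Cxcl13 were not above background on any array, and 2 of the 12 vessel and stroma genes were tested. Neither passed against the control. Ccl25, a chemokine of thymus and gut, was 0.48 lower with miR-26a than with the sponge (limma adjusted p = 0.0122), and its second probe differed by -0.26 without passing (0.136).

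Of the S1P and lipid guidance genes, 11 of 22 were tested, and 1 was lower and 2 higher with miR-26a. Among all tested probes 5.12% were lower and 4.6% higher. S1pr2, the receptor that confines B cells and opposes migration, had log2 signals of 5.89 and 5.45 in the control, 6.43 and 6.03 in the miR-26a and 5.83 and 5.79 in the sponge arrays. It rose by 0.56 with miR-26a (SE 0.11, limma adjusted p = 0.0404), while S1pr1 fell. Sgpp1, a phosphatase that removes the phosphate from S1P, rose by 0.36 (limma adjusted p = 0.0491). The probes of Lpar6, a lysophosphatidic acid receptor, gave 0.30 (limma adjusted p = 0.0787) at the one counted and 0.34 (0.0447) at the other. The S1pr2 and Sgpp1 calls are close to the limit: the S1pr2 call was kept in 2 and that of Sgpp1 in 0 of the 6 fits without 1 array. S1pr2 was also dim, above 50 on 1 of the 2 control arrays. S1pr4, another S1P receptor, was at 9.63 and 9.55, 9.24 and 9.48, and 9.76 and 9.59 in the 3 groups and did not pass (-0.23, limma adjusted p = 0.253). Cd69, which removes S1PR1 from the cell surface, differed from the control by 0.17 (limma adjusted p = 0.461). Cnr2, a cannabinoid receptor that helps to retain immature B cells in the marrow, was 1.00 higher with miR-26a than with the sponge (limma adjusted p = 0.00477). Its log2 signal was 9.47 and 9.86 with the control vector, 9.65 and 9.69 with miR-26a and 8.58 and 8.76 with the sponge, so that the sponge arrays were the ones apart.

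Among the KLF and FOXO factors, 12 of 21 were tested, and Klf2 alone passed against the control, where 5.12% of all tested probes were lower. Foxo1, the factor upstream of Klf2 in lymphocytes, had log2 signals of 13.14 and 13.35, 12.95 and 13.21, and 12.99 and 13.32 in the control, miR-26a and sponge arrays, and its change of -0.16 with miR-26a did not pass (limma adjusted p = 0.217). Foxo3 differed by 0.10 (limma adjusted p = 0.392). Klf4, a close relative of Klf2, was 0.30 above the control with miR-26a and 0.38 above it with the sponge, at limma adjusted p-values of 0.117 and 0.224. Between miR-26a and sponge, Klf8 was 0.43 lower (limma adjusted p = 0.0335) and Klf6 0.30 higher (0.0423), calls kept in 1 and 0 of the 6 fits without 1 array.

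The list of selectin ligand cores and the enzymes and transporters that build their glycans held 17 tested genes. Against the control 3 were lower and 0 higher, beside 5.12% and 4.6% of all tested probes. B4galt1, a galactosyltransferase that makes the lactosamine chains of such glycans, had log2 signals of 11.75 and 11.81 in the control, 10.65 and 10.55 in the miR-26a and 11.77 and 11.90 in the sponge arrays. The miR-26a arrays were more than 1 unit below the rest, and B4galt1 fell by 1.19 (SE 0.08, limma adjusted p = 0.00426), with a fall of 0.82 at its second probe (limma adjusted p = 0.0084). St3gal6, a sialyltransferase of selectin ligands, fell by 0.68 (limma adjusted p = 0.00848), from 11.09 and 10.95 to 10.46 and 10.22. Gcnt1, which starts the core 2 branch on which P-selectin ligands are built, fell by 0.50 (limma adjusted p = 0.0401), and that call was kept in 1 of the 6 fits without 1 array, against 4 for St3gal6 and 6 for B4galt1. The protein core genes Selplg, Cd44 and Spn did not pass, at 0.10, 0.12 and 0.07, and the fucosyltransferase genes Fut4 and Fut7 did not pass the filter. Between miR-26a and sponge B4galt1, St3gal6 and Gcnt1 were again lower, at -1.24, -0.75 and -0.54, and St3gal1 and Galnt1, which sialylate and start O-glycans, were 0.49 and 0.32 higher (limma adjusted p = 0.0322 and 0.0385). These calls were kept in 2 and 0 of the 6 fits without 1 array, and the second St3gal1 probe differed by 0.11 (limma adjusted p = 0.303).

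Of the integrin and adhesion genes, 14 of 24 were tested and 0 passed against the control in limma at the probe counted for each gene, with 5 lower and 1 higher at an unadjusted p under 0.05, where 12.8% of all tested probes were lower and 14.5% higher. The probes of Itgam, a subunit of a leukocyte integrin, disagreed: the one counted differed by 0.06 (limma adjusted p = 0.739) and the other, A_55_P1977929, by -0.82 (0.00712). Itga4, a subunit of the VLA-4 integrin that binds VCAM-1 in the marrow, was at 13.07 and 13.21, 12.93 and 12.84, and 13.05 and 13.17 in the 3 groups and was 0.26 lower with miR-26a (limma adjusted p = 0.118). Its partner Itgb1 was 0.33 above the control (limma adjusted p = 0.0587) and 0.41 above the sponge (0.0246), a call kept in 1 of the 6 fits without 1 array, with its second probe 0.29 above the sponge (0.0684).

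Downstream of the receptors, 34 of 41 signalling genes were tested, and 5 were lower and 1 higher with miR-26a. By the same rule 5.12% of all tested probes were lower and 4.6% higher. Rgs18, a regulator that shuts off G proteins, rose by 1.31 (SE 0.07, limma adjusted p = 0.00294), from 7.90 and 8.13 in the control to 9.26 and 9.39 in the miR-26a arrays, with 7.57 and 7.86 in the sponge arrays. Rgs10, of the same family, fell by 0.74 (limma adjusted p = 0.0443), but its arrays overlapped: 7.36 and 7.89 in the control, 6.37 and 7.39 in the miR-26a and 7.58 and 8.75 in the sponge arrays. Experiment 2 was higher than experiment 1 in each group for Rgs10. Pik3r5, a subunit of the PI3 kinase that G proteins activate, fell by 0.51 (limma adjusted p = 0.0265) and Rgs2 by 0.39 (0.0282), with a second Rgs2 probe at -0.30 (0.0682). The other lower genes were Rasgrp2, an activator of the small G protein Rap1 that switches on integrins, and Plcb2, a phospholipase. Rasgrp2 was at -0.35 (limma adjusted p = 0.0339), with its second probe also at -0.35 (0.0361). Plcb2 was at -0.31 (limma adjusted p = 0.0446), and its probe passed the filter only through the control and sponge arrays. For the comparison with the control, Rasgrp2 and Plcb2 lie outside the naming rule and were added with their values in view. In the 6 fits without 1 array the Rgs18 call was kept in 6, those of Rgs10 and Pik3r5 in 1, and those of Rgs2, Rasgrp2 and Plcb2 in 0. The G protein gene Gnai2 and Dock2, a Rac activator needed for migration, differed by -0.04 and 0.14 and did not pass (limma adjusted p = 0.732 and 0.35). Against the sponge 5 of the 34 genes were lower and 3 higher, beside 8.55% and 8.22% of all tested probes. There Rgs18 differed by 1.61 (limma adjusted p = 0.00152). Rgs10, Pik3r5 and Rasgrp2 differed by -1.28, -0.72 and -0.54 (limma adjusted p = 0.00855, 0.00861 and 0.00855).

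The genes whose pattern over the 6 arrays was most like that of a changed member were taken by the distance between log2 values centred on the control arrays, and this likeness is a description. Nearest to Klf2 were Slamf6, a lymphocyte surface receptor, H3f3b, a histone gene, and Astl, a protease gene, at distances of 0.154, 0.164 and 0.167 and changes with miR-26a of -0.63, -0.66 and -0.70. Nearest to S1pr1 were Rspry1 at 0.102, Nlrc4, an inflammasome gene, at 0.149, and a lincRNA interval probe, A_30_P01024764, at 0.237. Nearest to Ccr7 were B230118H07Rik at 0.667, Sash1 at 0.760 and Scn4b at 0.769, much farther away than for the other members, with changes of -2.24, -2.00 and -2.06. The distance is not scaled to the size of a change. The correlations of these 3 genes with Ccr7 were 0.982, 0.993 and 0.986, close to the 0.986, 0.986 and 0.990 of the 3 nearest to Klf2.

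The cells' label was checked against marker genes. All 11 B-lineage markers, such as Vpreb1 and Pax5, cleared background by the scanner's flag in each array, and 0 passed in any comparison at the probe counted for each gene. Their summed processed signal was 742000 to 792000 in the control, 744000 to 746000 in the miR-26a and 762000 to 790000 in the sponge arrays. Of the other lists, T and NK markers were summed at 1520 to 1640, 1390 to 1510 and 1260 to 1510 in the same order. Cd3g, Cd8b1 and Ncr1 were not above background, while 4 of the 11, Cd3e, Cd4, Cd5 and Klrb1c, were well above it on all 6 arrays. The control means of Cd3e, Cd4 and Klrb1c were 9.05, 9.73 and 6.42 on the log2 scale. A second probe of Pax5, A_51_P122855, was 0.36 lower with miR-26a than with the sponge (limma adjusted p = 0.027). Cd5, which is also found on some B cells, was the T and NK marker that passed: it fell by 1.98 with miR-26a (limma adjusted p = 0.00254), from 6.64 and 6.19 to 4.81 and 4.06, and like Ccr7 it passed the filter only through the control and sponge arrays. Myeloid markers were summed at 55900 to 58200, 55200 to 56300 and 55400 to 69800, nearly all of it from Csf3r. Cd14, Ly6g and Fcgr1 were not above background, while Csf1r and Elane, like Csf3r, were well above it on all 6 arrays. Stroma and endothelial markers were summed at 3150 to 3740, 3190 to 3400 and 2740 to 3370, with 7 of 10 not above background. The other 3, Kdr and Lepr among them, were well above it on all 6 arrays. Erythroid and platelet markers were summed at 142 to 149, 156 to 237 and 140 to 156, where the 1 tested gene, Gp9, was 0.92 higher with miR-26a than with the sponge (limma adjusted p = 0.0279). Their part in the homing gene results was not tested.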

How the data were processed

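RNA of 6 samples was labelled with 1 dye and measured on Agilent mouse arrays, 2 each with the control vector, miR-26a and the miR-26 sponge. The authors deposited scanner output (Agilent Feature Extraction 10.7.1.1, per the submitters' processing notes) with the intensity of each spot as mean, background and processed signal (background subtracted), and a table of quantile-normalized intensity values on a linear scale. Log2 of that table correlated at 0.99996 or more with log2 of the processed signals. Gene names and positions (mm9) come from the array design.

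Control spots and flagged outlier spots were dropped, the processed signals quantile-normalized and turned to log2, and spots of 1 probe averaged. A probe entered the tests if its signal exceeded 50 in 4 or more arrays and cleared background in 1 or more. All 6 arrays were fitted with limma 3.58.1 (R 4.3.3), with group and experiment, followed by Benjamini-Hochberg adjustment over 20168 probes, at a limit of 0.05. The methods normalize to the control of each experiment, and same-numbered arrays deviated together (correlations 0.38, 0.59 and 0.45), so the numbers were taken to pair the arrays. These correlations come from the data that were fitted, so the pairing remains an assumption. The precision is limited by 2 arrays a group. The fit was tested on simulated data.

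Alternatives were the fit without the block, the log ratios alone, an unpaired t-test, which a legend of the study names but its array methods do not, 75th percentile scaling, normexp with an offset of 50, the authors' values, 3 filters, array weights and leaving out each array. For the gene lists, the fit without the block and leaving out arrays were added after seeing the data. Named were all member probes, up to 4 called genes with the largest change per list and comparison, other pathway genes given with values where they did not pass, and the 3 genes nearest to each changed member. Those other genes were picked with their values in view. The members and lists were chosen with earlier results of these data known. Some genes of these pathways are not reported here. Sequences were searched with Python 3 and pandas. A comparison of receptor proteins was planned and not run.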

Additional observations from a re-analysis of the deposited data

How the results depend on the processing

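For the 6 called changes of single homing gene probes, 66 of 92 values under the alternatives kept the call and 26 kept the direction but lost it. For the 12 changes not called, 189 of 190 values kept direction and side of the threshold and 1 reversed: S1pr1 with the sponge, which was 0.011 above the control without control replicate 1 (adjusted p = 0.995, limma) and whose change over the fits without 1 array was -0.29 to 0.011. The 3 homing gene calls of each miR-26a comparison were 0 with the log ratios alone, an unpaired t-test and no filter, and 1 with probes above 50 on all 6 arrays (19315 probes), where Ccr7 and S1pr1 left the table and have no value. They were 1 to 3 when 1 array was left out. Without the replicate block Klf2 lost its call against the control (adjusted p = 0.0909, limma), and 238 probes were lower and 74 higher over the whole array, against 1033 and 927 with the block. Without control replicate 1 those counts were 149 and 71, without control replicate 2 they were 180 and 80, and with no filter (55681 probes) 0 and 0.

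For the 8 gene lists, the 11 lower and 3 higher genes against the control became 3 and 1 without the replicate block, and the 13 and 8 against the sponge became 8 and 2. All became 0 with no filter. With 75th percentile scaling 5 were higher against the sponge, and with signals above 50 on at least 2 arrays 1 was higher against the control. Leaving out 1 array gave 2 to 9 and 1 to 2 against the control, and 2 to 13 and 1 to 4 against the sponge. Fewest were lower against the control without control replicate 1 (2) or 2 (4), and 5 were lower without either sponge array; against the sponge 2 were lower without either sponge array. The filters change both the number of probes adjusted for and the probes over which limma pools its estimate of the spread. The cause of the losses was not tested. Dim signals, as for Ccr7 with miR-26a and Cxcr5, limit what can be measured.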
